A study of Mus musculus with 15 samples.

Results

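Mitochondria in fat cells fuse and divide continuously. The 9 genes described here encode the core of that machinery: the fusion proteins Mfn1, Mfn2 and Opa1, the protease Oma1, and the fission proteins Dnm1l, Fis1, Mff, Mief1 and Mief2. They were taken by name, as 9 of the 25206 probe sets measured, and each is read by 1 probe set, which carries the gene's Entrez number as its name. The rule uses no expression value, but the genes were chosen with earlier results of these data known.

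Expression was measured on 15 arrays of adipocytes sorted by flow cytometry from UCP1/Tomato mice aged 8 to 10 weeks, with 2 ng of total RNA per array. UCP1-positive cells came from inguinal fat of mice given CL316243, which activates the beta-adrenergic receptors of fat cells (CL, 3 arrays), roscovitine, an inhibitor of cyclin-dependent kinases (RS, 2 arrays), or rosiglitazone, an agonist of the nuclear receptor PPARG (RG, 3 arrays). UCP1-positive brown adipocytes came from brown fat of untreated mice (BAT, 3 arrays), and the white adipocytes, negative for UCP1, were taken from the inguinal depot of untreated mice (WAT, 4 arrays). The reporter is written as Tomato for the mice and as GFP for the gate, and the labels give no dose, treatment time or sex and do not say whether arrays came from separate animals, so p-values measure only the spread between these arrays. All groups carry the reporter. A treated group differs from WAT in both its treatment and its UCP1 gate, which cannot be told apart here, because untreated UCP1-positive cells of this depot were not among the groups.

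Mitochondrial fusion needs GTPases of the dynamin family in both membranes. MFN1 and MFN2 join outer membranes, and OPA1 joins inner membranes and holds the folds of the inner membrane (cristae) in shape. OMA1 is an inner membrane protease that cuts OPA1 when the membrane potential falls, which stops fusion. Fission is carried out by DRP1, the product of Dnm1l, which is drawn from the cytosol onto mitochondria by the receptors MFF and the paired proteins of Mief1 and Mief2, while FIS1 is a further outer membrane protein of the same system. In brown adipocytes, adrenergic stimulation is known to fragment mitochondria, MFN2 is also found where mitochondria touch lipid droplets, and mice without Oma1 make less heat.

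The promoter windows below, from RefSeq on GRCm38.p6, run from 250 bases before to 50 bases after a transcription start. They are shown for Opa1 and Mfn2, whose levels moved together across the arrays, and for Mfn1 and Mief1, the partners of Mfn2 and Mief2 that were not called on the deposited scale. Capitals mark matches, on either strand, to 6 motifs: the ERR motif TNAAGGTCA, the NRF1 motif (GCGCA followed at once by its reverse complement), the GABP motif CCGGAAG, the CRE TGACGTCA, the PPAR motif (AGGTCA repeated with 1 base between) and the YY1 motif AAGATGGCG. Mfn2 has several annotated starts, and the window shown holds no capitals.
Opa1, chr16:29579084-29579383, plus strand: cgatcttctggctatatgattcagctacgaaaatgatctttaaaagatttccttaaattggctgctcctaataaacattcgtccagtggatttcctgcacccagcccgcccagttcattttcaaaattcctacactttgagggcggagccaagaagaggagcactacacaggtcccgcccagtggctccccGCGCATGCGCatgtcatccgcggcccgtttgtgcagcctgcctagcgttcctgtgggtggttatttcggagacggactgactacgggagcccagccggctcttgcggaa
Mfn2, chr4:147904612-147904911, minus strand: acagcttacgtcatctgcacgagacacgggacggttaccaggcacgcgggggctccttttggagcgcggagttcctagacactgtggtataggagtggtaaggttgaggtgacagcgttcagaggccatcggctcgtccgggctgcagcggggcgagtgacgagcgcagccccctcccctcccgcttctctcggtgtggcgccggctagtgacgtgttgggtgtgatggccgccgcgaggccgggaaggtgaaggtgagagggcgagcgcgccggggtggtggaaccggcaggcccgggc
Mfn1, chr3:32529232-32529531, plus strand: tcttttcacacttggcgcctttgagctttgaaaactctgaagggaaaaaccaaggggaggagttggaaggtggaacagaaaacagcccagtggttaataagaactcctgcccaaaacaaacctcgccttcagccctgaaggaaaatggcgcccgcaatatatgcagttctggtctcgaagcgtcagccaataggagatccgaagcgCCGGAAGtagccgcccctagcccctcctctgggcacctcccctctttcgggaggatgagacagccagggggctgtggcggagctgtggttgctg
Mief1, chr15:80233830-80234129, plus strand: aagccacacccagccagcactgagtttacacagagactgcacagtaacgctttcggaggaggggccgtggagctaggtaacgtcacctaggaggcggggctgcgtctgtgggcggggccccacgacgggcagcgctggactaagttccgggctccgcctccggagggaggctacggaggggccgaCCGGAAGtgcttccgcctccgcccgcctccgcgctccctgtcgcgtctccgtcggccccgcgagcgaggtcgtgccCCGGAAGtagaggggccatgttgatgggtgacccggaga
All 9 genes had a window, 14 in all, and no 2 motifs overlapped in them. The NRF1 motif stood in the Opa1 window, 59 bases before the start, and in 0.971% of the 32851 windows of all genes. The GABP motif stood in windows of Mfn1, Mief1, Fis1 and Dnm1l and in 8.86% of all windows. The ERR motif (1.28% of all windows), the CRE (1.79%), the PPAR motif (0.0396%) and the YY1 motif (1.4%) stood in none of the 14.

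Values are log2 levels, so a difference of 1 is a doubling on the array's scale, and they are compared between arrays and never between genes. The spread of the deposited values differed by group. The SD over all probe sets was 1.91 to 2.00 in WAT and 1.65 to 1.72 in BAT. The 10th percentile was 1.51 to 1.68 in WAT and 2.11 to 2.15 in BAT, with CL, RS and RG between. The part of this spread in the differences from WAT was not tested. On every one of the 15 arrays, each of the 9 genes ranked at or above 57.1% of the probe sets. The labelled cell types were checked against marker genes. Adipoq, which encodes adiponectin, lay between 7.85 and 11.04 on all arrays, and no mature adipocyte marker of 11 was under the 10th percentile of any array. Ucp1 lay between 6.05 and 11.22 in the UCP1-positive groups and between 3.2 and 4.47 in WAT, as the gate selects for. Macrophage markers were lower in each UCP1-positive group than in WAT in 11 of 11 genes. Their summed linear level ranged from 434 to 721 in CL, 265 to 383 in RS, 342 to 814 in RG, 355 to 474 in BAT and 2392 to 4897 in WAT, with no marker under the 10th percentile of any array. WAT 4 stood apart, with the lowest summed level of adipocyte markers (4891, against 9448 to 11544 in WAT 1 to 3) and the highest of macrophage markers. RS 3 had the lowest summed endothelial level, 232, against 1209 in RS 4. In bulk samples, fewer cells of a type and less RNA per cell cannot be told apart.

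Across the 5 groups together, 5 of the 9 genes differed by limma's F-test (55.6%, where 43.1% of all probe sets did). They were Mief2 (adjusted p = 0.0063), Mfn2 (adjusted p = 0.0111), Opa1 (adjusted p = 0.0114), Mff (adjusted p = 0.0215) and Oma1 (adjusted p = 0.0321). Mfn1, Dnm1l, Fis1 and Mief1 did not pass, with adjusted p-values between 0.0939 and 0.505. The group means of a gene spanned most in Oma1 (1.06 log2 units), Mief2 (1.04), Opa1 (1.02) and Mfn2 (1.00), and least in Mief1 (0.30).

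**Figure D1:**
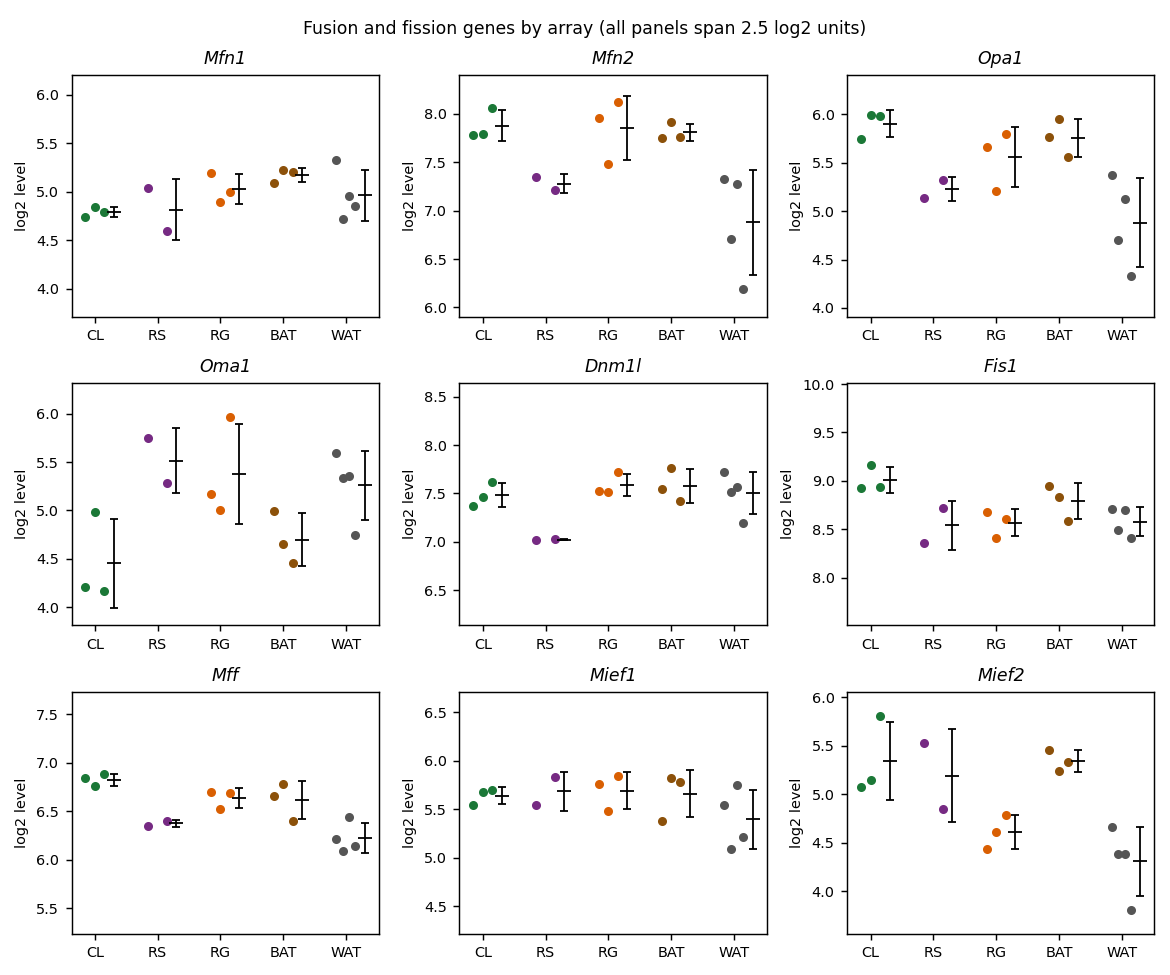
Log2 level (vertical axis) of each of the 9 genes on every array, by group. Each point is 1 array, and the bar beside each group is the mean with its SD. By group mean, Mfn2, Opa1, Mff, Mief1 and Mief2 were lowest in WAT, Mfn1 and Oma1 in CL, and Dnm1l and Fis1 in RS. All panels span the same height in log2 units, each centred on its gene.

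Mfn2, the outer membrane fusion GTPase, had log2 levels of 7.78, 7.79 and 8.06 in CL, 7.35 and 7.21 in RS, 7.96, 7.48 and 8.12 in RG, and 7.75, 7.91 and 7.76 in BAT, against 7.33, 6.71, 7.28 and 6.19 in WAT. Every CL, RG and BAT array was above every WAT array, while both RS arrays lay inside or just above the WAT range. The order of group means was CL (7.88 ± 0.16, SD, n = 3), RG (7.85 ± 0.33, n = 3), BAT (7.81 ± 0.09, n = 3), RS (7.28 ± 0.10, n = 2) and WAT (6.88 ± 0.54, n = 4), and no neighbours in that order differed past the threshold. Against WAT, Mfn2 rose 1.90-fold in BAT (log2 difference 0.93 ± 0.24, SE, limma adjusted p = 0.00657). It rose 2.00-fold in CL (1.00 ± 0.24, limma adjusted p = 0.00881) and 1.97-fold in RG (0.98 ± 0.24, limma adjusted p = 0.0182). In RS the difference was 0.40 ± 0.27 (limma adjusted p = 0.288), with a 95% interval from -0.18 to 0.98. The RG call was lost without RG 2 (limma adjusted p = 0.0735) and without RG 4 (limma adjusted p = 0.0921).

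Mfn1, its partner at the outer membrane, was not called in any comparison on the deposited scale. Its levels ran from 4.74 to 4.84 in CL, 4.59 to 5.04 in RS, 4.89 to 5.19 in RG and 5.09 to 5.22 in BAT, against 4.72 to 5.33 in WAT. The order of means was BAT (5.17), RG (5.03), WAT (4.97), RS (4.82) and CL (4.79), with no pair past the threshold. The BAT difference from WAT was 0.20 ± 0.17 (limma adjusted p = 0.324), and after quantile normalization it was 0.55 and was called (limma adjusted p = 0.0245). The largest gap was CL against BAT, where the arrays did not overlap (log2 difference -0.38 ± 0.18, SE, n = 3 each, limma adjusted p = 0.26). Relative to its mean over all arrays, the log2 level of Mfn2 minus that of Mfn1 lay at 0.40 to 0.72 in CL, -0.24 to 0.07 in RS, 0.04 to 0.57 in RG and 0.01 to 0.14 in BAT, against -1.21 to -0.23 in WAT. The CL, RG and BAT arrays were thus all above the WAT arrays in this balance, and whether both mitofusins changed unequally was not tested.

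Opa1, the fusion GTPase of the inner membrane, had log2 levels of 5.74, 5.99 and 5.98 in CL, 5.14 and 5.32 in RS, 5.66, 5.21 and 5.80 in RG, and 5.76, 5.95 and 5.56 in BAT, against 5.37, 4.70, 5.12 and 4.33 in WAT. CL and BAT arrays lay above all WAT arrays, and RS arrays and RG 3 lay within the WAT range. Opa1 rose 1.84-fold in BAT (log2 difference 0.88 ± 0.22, SE, n = 3 and 4, limma adjusted p = 0.00599) and 2.03-fold in CL (1.02 ± 0.22, n = 3 and 4, limma adjusted p = 0.00531). In RG the difference was 0.68 ± 0.22 (limma adjusted p = 0.061), and in RS it was 0.35 ± 0.25 (limma adjusted p = 0.319). The order of means was CL (5.90 ± 0.14, SD, n = 3), BAT (5.76 ± 0.20, n = 3), RG (5.56 ± 0.31, n = 3), RS (5.23 ± 0.13, n = 2) and WAT (4.88 ± 0.46, n = 4), with no neighbours past the threshold.

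Oma1, the protease that cuts OPA1, was lower in CL than in WAT. Its log2 levels were 4.21, 4.98 and 4.17 in CL, 5.75 and 5.28 in RS, 5.17, 5 and 5.96 in RG, and 4.99, 4.65 and 4.46 in BAT, against 5.59, 5.34, 5.36 and 4.75 in WAT. CL 1 and CL 4 were the lowest of all arrays, and the CL and WAT ranges overlapped through CL 3 and WAT 4. Oma1 fell 1.75-fold in CL (log2 difference -0.81 ± 0.27, SE, n = 3 and 4, limma adjusted p = 0.0408). That call was lost without CL 1, CL 4, WAT 1, WAT 2 or WAT 3 (limma adjusted p between 0.0777 and 0.155) and held without WAT 4 (-0.98, limma adjusted p = 0.0242). It was also lost after quantile normalization (-0.59, limma adjusted p = 0.161). In BAT the difference was -0.56 ± 0.27 (limma adjusted p = 0.103), without WAT 4 it was -0.73 (limma adjusted p = 0.0452), and after quantile normalization it was -0.22 (limma adjusted p = 0.583). The order of means was RS (5.52), RG (5.38), WAT (5.26), BAT (4.70) and CL (4.45), and no neighbours differed past the threshold. In RS the difference from WAT was 0.26 ± 0.31 (limma adjusted p = 0.561), and in RG it was 0.12 ± 0.27 (limma adjusted p = 0.814).

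Set beside each other, the log2 level of Opa1 minus that of Oma1, relative to its mean over all arrays, was 0.61 to 1.41 in CL and 0.37 to 0.90 in BAT. It was -1.01 to -0.36 in RS and -0.56 to 0.09 in RG, against -1.04 to -0.62 in WAT. All CL and BAT arrays lay above all RS, RG and WAT arrays in this difference, which was seen in these values and not tested.

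**Figure D2:**
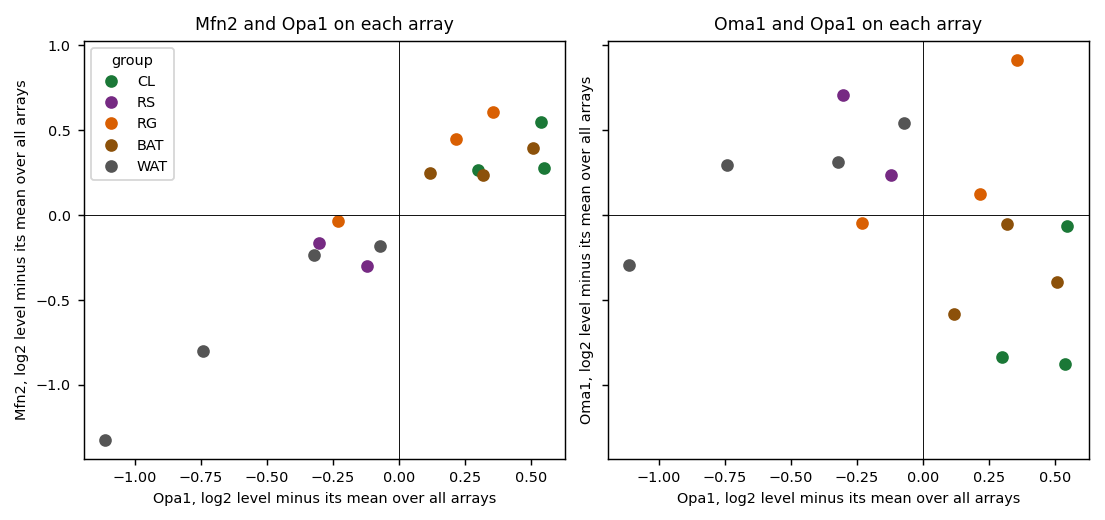
Log2 level of Mfn2 (left) and Oma1 (right) against that of Opa1 on each of the 15 arrays, each gene relative to its own mean over all arrays, coloured by group. Mfn2 and Opa1 lie along 1 line from WAT to CL, while on the CL and BAT arrays Oma1 lies below all RS and RG arrays and WAT 1 to 3, with CL 3 and BAT 1 near its mean.

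Mfn2 and Opa1 varied together within groups as well as between them. Their levels correlated over the 15 arrays at r = 0.95, and at r = 0.92 after each group's mean was removed, values that describe arrays sharing their normalization and, within a group, their treatment. The pair was not alone in this within groups, where Opa1 and Dnm1l correlated at 0.86 and Mfn2 and Dnm1l at 0.82. The lowest pair within groups was Fis1 and Mief2, at -0.05. Opa1 and Oma1 correlated at -0.26 over all arrays and at 0.62 within groups, so the negative value lay between the groups. WAT 4 was the lowest WAT array for 6 of the 9 genes and RG 3 the lowest RG array for 8, so the same arrays were low in several of the genes. Among 5739 other named genes with a mean over 5, those most like Opa1 over the 15 arrays were Msi2 (r = 0.96), Cops3 (r = 0.96) and Mrpl12 (r = 0.96). Those most like Mief2 were Kcnk3 (r = 0.94), G0s2 (r = 0.93) and Letm1 (r = 0.93), and those most like Oma1 were Mob3b (r = 0.84), Cnpy2 (r = 0.80) and Bud23 (r = 0.79).

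Dnm1l, whose product DRP1 constricts mitochondria, was lowest in RS. Its log2 levels were 7.02 and 7.03 in RS, against 7.37 to 7.62 in CL, 7.52 to 7.72 in RG, 7.42 to 7.76 in BAT and 7.20 to 7.72 in WAT. Both RS arrays were below all 13 other arrays. The RS difference from WAT was -0.48 ± 0.17 (SE, n = 2 and 4, limma adjusted p = 0.0593), and it passed the threshold without WAT 4 (-0.58, limma adjusted p = 0.0364) and with arrays centred on their medians (-0.55, limma adjusted p = 0.039). After quantile normalization it was -0.25 (limma adjusted p = 0.396). Against RG it was -0.57 ± 0.18 (limma adjusted p = 0.123), against BAT -0.55 ± 0.18 (limma adjusted p = 0.104) and against CL -0.46 ± 0.18 (limma adjusted p = 0.212).

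Mff, the main receptor that brings DRP1 to mitochondria, had log2 levels of 6.84, 6.76 and 6.88 in CL, 6.35 and 6.40 in RS, 6.70, 6.52 and 6.69 in RG, and 6.66, 6.78 and 6.40 in BAT, against 6.21, 6.09, 6.44 and 6.14 in WAT. CL and RG arrays were above all WAT arrays, and BAT 4 and both RS arrays lay within the WAT range. Mff rose 1.52-fold in CL (log2 difference 0.61 ± 0.14, SE, n = 3 and 4, limma adjusted p = 0.00769) and 1.31-fold in BAT (0.39 ± 0.14, n = 3 and 4, limma adjusted p = 0.0351). In RG the difference was 0.42 ± 0.14 (limma adjusted p = 0.0686), and in RS 0.15 ± 0.16 (limma adjusted p = 0.495). The BAT call was lost with arrays centred on their medians (0.29, limma adjusted p = 0.115) and without any 1 of BAT 1, BAT 3, WAT 1, WAT 2 or WAT 4 (0.31 to 0.39, limma adjusted p between 0.0645 and 0.125). Its order of means was CL (6.83), RG (6.64), BAT (6.61), RS (6.38) and WAT (6.22).

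Mief2, which encodes an outer membrane adaptor for DRP1, had log2 levels of 5.08, 5.15 and 5.81 in CL, 5.53 and 4.85 in RS, 4.43, 4.61 and 4.79 in RG, and 5.46, 5.24 and 5.33 in BAT, against 4.66, 4.38, 4.38 and 3.81 in WAT. All CL, RS and BAT arrays were above the WAT arrays, and the RG arrays overlapped them. Mief2 rose 2.05-fold in BAT (log2 difference 1.04 ± 0.23, SE, limma adjusted p = 0.00261), 2.06-fold in CL (1.04 ± 0.23, limma adjusted p = 0.00561) and 1.84-fold in RS (0.88 ± 0.26, limma adjusted p = 0.0269). In RG the difference was 0.30 ± 0.23 (limma adjusted p = 0.405). The RS call was lost without RS 3 (0.54, limma adjusted p = 0.246) and without WAT 4 (0.72, limma adjusted p = 0.0618). RG arrays lay below all BAT arrays (-0.73 ± 0.24, limma adjusted p = 0.0562) and below all CL and RS arrays. The difference of RG from BAT passed the threshold without WAT 4 (limma adjusted p = 0.0371) and without CL 4 (limma adjusted p = 0.0404). These arrays enter that test only through the shared spread. After quantile normalization the difference was -0.93 and was called (limma adjusted p = 0.0273). With arrays centred on their medians it was -0.65 and was not (limma adjusted p = 0.0926).

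Mief1, the paralogue of Mief2, and Fis1, an outer membrane protein of the fission system, were not called in the main fit. That fit used all 15 arrays and all probe sets on the deposited scale, without an intensity trend. Mief1 ran from 5.54 to 5.70 in CL, 5.54 to 5.83 in RS, 5.48 to 5.84 in RG and 5.38 to 5.82 in BAT, against 5.09 to 5.75 in WAT, and its groups all overlapped. The BAT difference from WAT in Mief1 was 0.26 ± 0.18 (limma adjusted p = 0.251), and after quantile normalization it was 0.63 and was called (limma adjusted p = 0.0218). Fis1 ran from 8.93 to 9.16 in CL, 8.36 to 8.72 in RS, 8.41 to 8.68 in RG and 8.59 to 8.95 in BAT, against 8.41 to 8.71 in WAT. The CL arrays were above all WAT, RS and RG arrays. The CL difference from WAT was 0.43 ± 0.15 (SE, n = 3 and 4, limma adjusted p = 0.0513), close to the threshold. It was called with an intensity trend (limma adjusted p = 0.0459), with dim probe sets left out (0.0469) and without BAT 4 (0.0443), RS 3 or RS 4 (0.0426 each). Without WAT 4 it was 0.38 (limma adjusted p = 0.13).

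**Figure D3:**
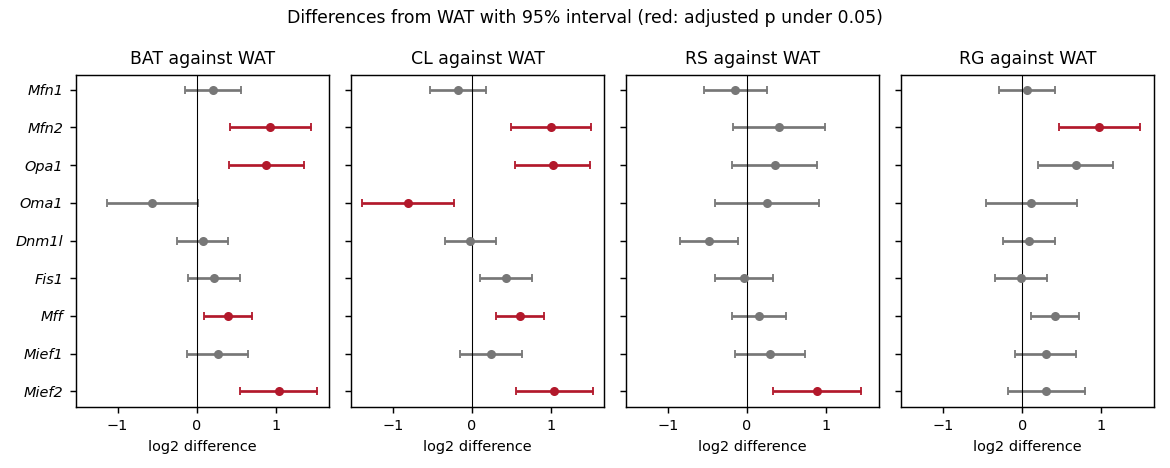
Log2 difference of BAT, CL, RS and RG from WAT for each gene (horizontal axis), with its 95% interval, unadjusted for the number of probe sets. Red marks an adjusted p under 0.05: 4 genes in BAT, 5 in CL, and 1 each in RS and RG.

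Counted by comparison, 4 of 9 genes were called in BAT against WAT, all higher (44.4%, beside 44% of all probe sets called and 27.6% called higher), so the share called was close to the background on the deposited scale. After quantile normalization 6 of 9 were called in BAT, all higher, beside 24.7% of all probe sets, the added ones being Mfn1 and Mief1. In CL against WAT, 5 of 9 were called, Mfn2, Opa1, Mff and Mief2 higher and Oma1 lower (55.6%, beside 25.2% of all probe sets called, 15.2% higher and 9.97% lower). After quantile normalization 4 of 9 were called in CL, without Oma1, beside 12.5% of all probe sets. In RS against WAT only Mief2 was called (11.1%, beside 21.4% of all probe sets called and 11.1% called higher). In RG against WAT only Mfn2 was called (11.1%, beside 11.4% called and 5.19% called higher). Arrays did not overlap in 3 genes between BAT and WAT (beside 47.1% of all probe sets), 5 between CL and WAT (beside 37.7%), 2 between RS and WAT (beside 46%) and 2 between RG and WAT (beside 30.7%). These comparisons share the WAT arrays. The median difference of the 9 genes was 0.26 in BAT, 0.43 in CL, 0.26 in RS and 0.30 in RG, beside 0.18, 0.13, 0.14 and 0.10 for all probe sets. Among the 9690 probe sets with a mean above 4, which include all 9 genes, the medians were negative. They were -0.26 in BAT, -0.14 in CL, -0.215 in RS and -0.04 in RG, so the background depended on the level of the probe sets. Without WAT 4, each of the 4 genes called higher in CL was still called, beside 16.9% of all probe sets. Their differences were 0.77 for Mfn2, 0.84 for Opa1, 0.58 for Mff and 0.87 for Mief2 (limma adjusted p between 0.0139 and 0.023).

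Among the UCP1-positive groups no gene of the 9 was called by limma. The share of all probe sets called was 2.05% in CL against BAT, 3.67% in RS against BAT, 14.3% in RG against BAT, 1.27% in RS against CL, 0.682% in RS against RG and 2.87% in CL against RG. At an unadjusted p under 0.05 there was 1 gene in CL against BAT (beside 18.9% of all probe sets at that threshold), 2 in RS against BAT (beside 20.4%) and 2 in RG against BAT (beside 31.6%). There were 5 in RS against CL (beside 17.3%), 1 in RS against RG (beside 18.6%) and 3 in CL against RG (beside 19.4%). The 5 in RS against CL were Opa1 (-0.67 ± 0.27), Oma1 (1.06 ± 0.32), Dnm1l (-0.46 ± 0.18), Fis1 (-0.47 ± 0.18) and Mff (-0.45 ± 0.17), with limma adjusted p-values between 0.112 and 0.212. RS and CL arrays did not overlap in 6 of 9 genes (66.7%, beside 30.4% of all probe sets), these 5 and Mfn2. In CL against RG, Oma1 differed by -0.92 ± 0.29 (limma adjusted p = 0.096), Mief2 by 0.74 ± 0.24 (limma adjusted p = 0.113) and Fis1 by 0.44 ± 0.16 (limma adjusted p = 0.153). Arrays did not overlap in 1 gene between CL and BAT, Mfn1 (beside 20.4%), in 5 between RS and BAT (beside 30.5%), in 2 between RG and BAT (beside 34.7%), in 4 between RS and RG (beside 34.6%) and in 5 between CL and RG (beside 25.8%). The 95% interval of the CL difference from BAT ran from -0.48 to 0.62 in Mfn2, from -0.36 to 0.65 in Opa1 and from -0.52 to 0.52 in Mief2.

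**Figure D4:**
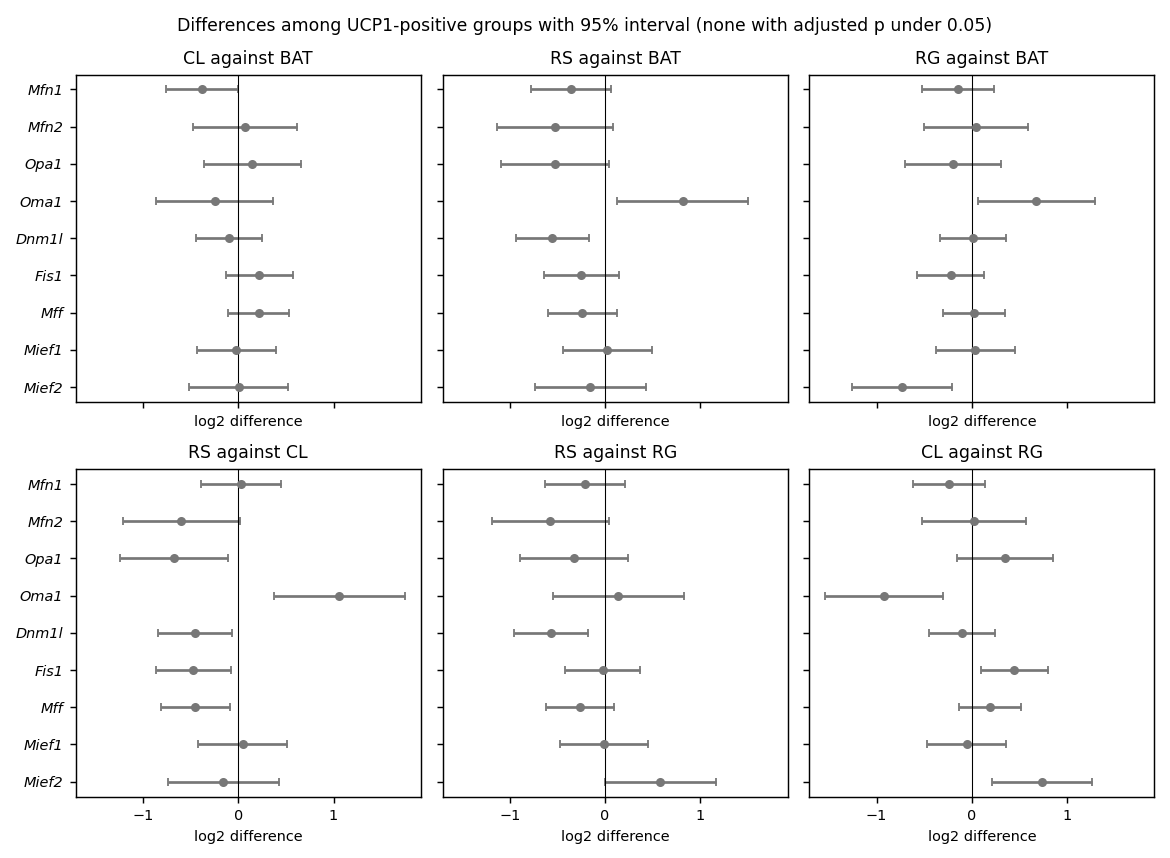
Log2 difference for each gene among the UCP1-positive groups (horizontal axis), with its 95% interval, unadjusted for the number of probe sets. No gene had an adjusted p under 0.05, and RS sits below CL in Mfn2, Opa1, Dnm1l, Fis1 and Mff and above it in Oma1.

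Partners of the core machinery were described by lists chosen by function. Against WAT, 44% of all probe sets were called in BAT, 25.2% in CL, 21.4% in RS and 11.4% in RG. The shares called higher were 27.6%, 15.2%, 11.1% and 5.19% in that order, and no list was tested against these shares. Of 4 outer membrane fusion partners, 3 rose in BAT and in CL and 2 in RS and in RG. Pld6, a mitochondrial phospholipase that promotes fusion, rose by 1.67 ± 0.22 log2 units in BAT (SE, n = 3 and 4, limma adjusted p = 8.04e-05), by 1.18 in CL, 0.87 in RS and 0.93 in RG. Miga2, a mitoguardin of the outer membrane, rose by 1.16, 1.21, 1.24 and 1.02 in the same order. Slc25a46, an outer membrane carrier protein that binds the fusion machinery, rose by 0.80 in BAT and 0.74 in CL, with differences of 0.11 in RS and 0.17 in RG, and Miga1 was not called in any of the 4 groups by limma. Whether Pld6 and Miga2 differed in RS more than Mfn2 and Opa1 was not tested.

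Of 13 fission partners, 5 rose and 1 fell in BAT, 4 and 1 in CL, 1 and 1 in RS, and 5 and 0 in RG. The shares of all probe sets called were 44%, 25.2%, 21.4% and 11.4% in that order. Mtfp1, an inner membrane protein that promotes fission, had the largest difference of the list in BAT, at 2.19 ± 0.30 log2 units (SE, n = 3 and 4, limma adjusted p = 0.000114), and rose by 1.52 in CL and 1.09 in RG. In RS its difference was 0.92 ± 0.34 (limma adjusted p = 0.0635). Akap1, which anchors protein kinase A at the outer membrane where the kinase restrains DRP1, rose by 1.26 in BAT, 0.86 in RS and 0.83 in RG, with 0.65 in CL (limma adjusted p = 0.074). The others called, named after their values were seen, were Mul1 (0.65) and Pgam5 (0.56) in BAT, Gdap1 (0.62), Marchf5 (0.56) and Sh3glb1 (0.46) in CL, and Marchf5 (0.70), Mtfr1l (0.60) and Sh3glb1 (0.51) in RG. Dnm2, a dynamin of endocytosis that has also been placed at fission sites, fell by 0.54 in BAT, 0.57 in CL and 0.72 in RS, with -0.32 in RG (limma adjusted p = 0.164). Mtfr1, a further fission regulator, rose by 0.63 in BAT, with differences of 0.25 in CL, -0.01 in RS and 0.32 in RG.

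Of 9 inner membrane proteases and scaffolds, 3 rose and 1 fell in BAT, 4 and 1 in CL, 0 in RS by limma (1 at an unadjusted p under 0.05), and 1 rose in RG. Beside this list and the cristae list below, 44% of all probe sets were called in BAT, 25.2% in CL, 21.4% in RS and 11.4% in RG. Afg3l2, a subunit of the m-AAA protease, rose by 1.35 ± 0.22 log2 units in BAT (limma adjusted p = 0.000372) and 0.81 in CL. The prohibitins Phb and Phb2, ring-forming scaffolds that steady OPA1, rose by 1.15 and 0.69 in BAT and by 0.78 and 0.61 in CL, and Phb2 was the one that rose in RG (0.76). The other genes called in CL, named after their values were seen, were the inner membrane protease Parl, which rose by 0.50, and the protease Htra2 of the space between the membranes, which fell by 0.47. Yme1l1, the other protease that cuts OPA1, fell by 0.43 ± 0.16 in BAT (limma adjusted p = 0.038), with -0.11 in CL (limma adjusted p = 0.619). Of 8 genes of the cristae, 7 rose in BAT, 6 in CL, 2 in RS and 5 in RG, and none fell. The examples Samm50, Immt, Chchd3 and Micos10, parts of the bridge between the membranes, rose by 1.18, 1.27, 1.11 and 0.83 in BAT. The 2 in RS were Chchd6 (0.80) and Micos13 (0.86), named after their values were seen.

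Of 5 genes that move mitochondria along microtubules, 1 rose in BAT and in CL, the anchor Rhot2 (0.88 and 0.58), 1 rose in RG, its paralogue Rhot1 (0.54), and 1 fell in RS, the adaptor Trak2 (by 0.66). Trak1 and the motor Kif5b passed in none of the 4 by limma. Of 8 mitophagy genes, 1 rose and 1 fell in BAT, 1 rose in CL, 1 in RS and 2 in RG. Beside this and the transport list, 44% of all probe sets were called in BAT, 25.2% in CL, 21.4% in RS and 11.4% in RG. Pink1, the kinase that marks damaged mitochondria, was the one that rose in BAT (0.41), CL (0.56) and RS (0.51) and rose in RG (0.58) beside Bnip3, a mitophagy receptor (0.99, named after its value was seen), and Fkbp8, another such receptor, fell in BAT by 0.52.

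General mitochondrial genes were counted in the same way. Beside this and the marker lists, 44% of all probe sets were called in BAT, 25.2% in CL, 21.4% in RS and 11.4% in RG. Of 23 import, respiratory and matrix genes, 15 rose in BAT, 16 in CL, 1 in RS and 14 in RG, and none fell, with medians of 1.00, 0.77, 0.48 and 0.69. The one in RS was Sdha, a subunit of succinate dehydrogenase (0.91, named after its value was seen). The 9 fusion and fission genes had lower medians than this list in all 4 groups, a comparison given without a test. In CL, Mfn2, Opa1 and Mief2 lay above that list's median and the other 6 genes below it. In the same comparisons the 11 macrophage markers fell in 11 of 11 genes in each group, with medians between -3.36 and -2.37. Stromal markers fell in 9 of 9 in BAT, 6 in CL, 8 in RS and 3 in RG, with summed levels of 1035 to 2404 in CL, 511 to 1636 in RS, 1515 to 2359 in RG and 707 to 1184 in BAT, against 2354 to 8061 in WAT. Endothelial markers fell in 6 of 10 in RS and 2 in RG, and none was called in BAT or CL by limma (1 and 0 at an unadjusted p under 0.05). Mature adipocyte markers rose in 3 of 11 in BAT, 2 in CL, 4 in RS and 6 in RG. The part of these other cell types and of adipocyte RNA in the differences of the 9 genes was not tested.

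**Figure D5:**
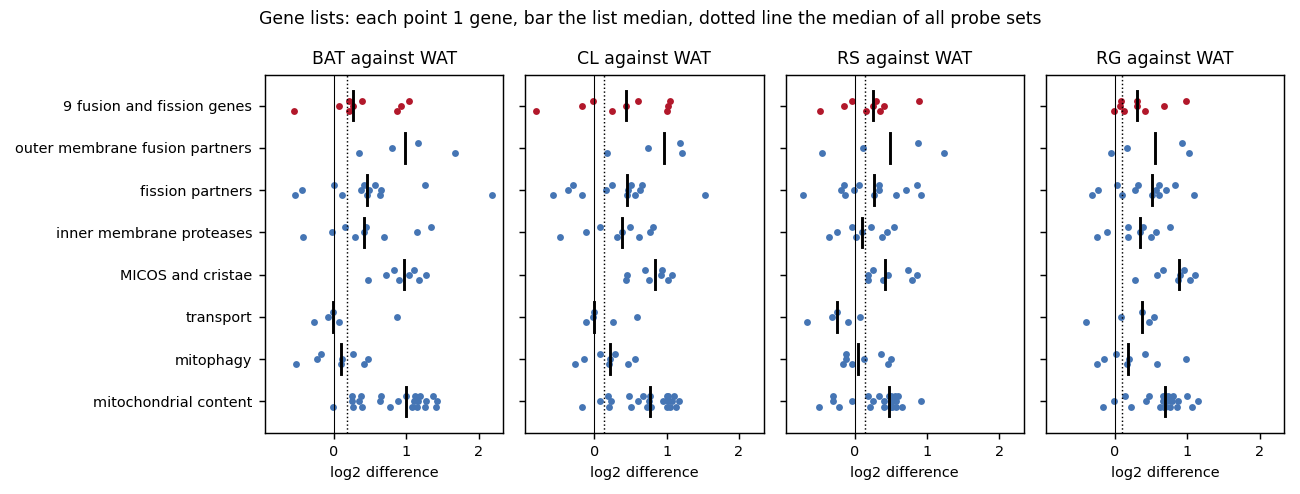
Log2 difference from WAT (horizontal axis) of every gene in 8 lists, 1 panel per group. Each point is 1 gene, the bar is the list's median, and the dotted line is the median of all probe sets. The median of probe sets with a mean above 4, which was negative in each comparison, is not drawn. The medians of the cristae and mitochondrial content lists sit right of that of the 9 fusion and fission genes in each panel.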

How the data were processed

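Per the labels' protocols, RNA of the sorted cells was prepared with the WT Pico kit and hybridised, in 1 colour, to Affymetrix arrays. The authors deposited log2 expression values of each probe set. RMA, Affymetrix Expression Console and affy 1.36.1 are listed in the submitters' processing notes without an order, and the genome build and probe-set definition are not given in the sources used here. The table held 25206 probe sets, of which 23185 had 1 gene symbol through the platform annotation, none had several and 2021 had none. No value was filtered out. Arrays carry no read depth, and their number limits the precision.

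Groups were compared with limma 3.58.1 in R 4.3.3, in 1 model with a mean per group over 15 arrays (10 residual degrees of freedom), two-sided, with p-values adjusted by Benjamini-Hochberg over the whole table in each of 10 comparisons and a threshold of 0.05. The spread of the 2 RS arrays is assumed to match that of the other groups. The test was checked on simulated data with changes of 2 log2 units in BAT, larger than any difference of the 9 members. That check does not show how well smaller differences are found. The members and lists were chosen with earlier results of these data known. All 9 members were named, and from each other list up to 4 genes with the smallest p in BAT against WAT. Genes like a member were the 3 with the highest correlation, for the 3 members with the widest range of group means. Of probe sets that share a symbol, only that of highest mean level entered the lists. Promoter windows came from RefSeq. Alternatives were median centring, quantile normalization, an intensity trend, a filter on dim probe sets, the replicate number as a block, each array left out in turn, and, chosen after seeing the data, WAT 4 and RS 3 left out together.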

Additional observations from a re-analysis of the deposited data

How the results depend on the processing

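The 11 member differences called were recomputed under 21 alternatives. None of the 231 values changed sign, 208 stayed past the threshold and 23 did not, in Mff (BAT and CL), Oma1 (CL), Mief2 (RS) and Mfn2 (RG). Mfn2, Opa1 and Mief2 in BAT and in CL passed under all 21. Of the 79 differences not called, 28 changed sign under some alternative, none of them larger than 0.26 log2 units on the deposited scale, and 9 were called under some alternative. Leaving out 1 array at a time gave 3 to 4 genes called in BAT against WAT, 4 to 6 in CL against WAT and 0 to 1 in RS against WAT. It gave 0 to 2 in RG against WAT, 0 to 1 in RG against BAT and 3 to 5 by the F-test. The share of all probe sets called moved as well. In the fits that kept both RS arrays, it was 34.1% to 44.2% in BAT and 14.1% to 26.3% in CL against WAT. It was 14.5% to 22.8% in RS and 4.14% to 12.2% in RG against WAT, 6.32% to 15% in RG against BAT and 32.8% to 40.6% by the F-test. No positive pairing of arrays by replicate number was seen. After group means were removed, 24 same-numbered pairs of different groups correlated between -0.88 and -0.05, and 0 of 15 arrays correlated best with its own number. These values do not show what the number stands for. With the replicate number as a block (7 residual degrees of freedom), limma called 3 genes in CL against WAT, beside 9.76% of all probe sets. It called 0 in RS against WAT (1 at an unadjusted p under 0.05) and 0 in RG against WAT (3), beside 8.14% and 4.25%. The F-test with the block called 0 (5 at an unadjusted p under 0.05), where 14.2% of all probe sets were called. Median centring called 2 genes in RS against WAT, Mief2 and Dnm1l, beside 19.6% of all probe sets. Quantile normalization called 6 in BAT against WAT, adding Mfn1 (0.55, adjusted p = 0.0245) and Mief1 (0.63, adjusted p = 0.0218), beside 24.7% of all probe sets. It called 3 in RG against WAT, Mfn2, Opa1 and Mff (beside 8.04%), and 1 in RG against BAT, Mief2 (beside 8.02%). It also lost Oma1 in CL (-0.59, limma adjusted p = 0.161). With only probe sets above a mean of 4, 3 were called in RG against WAT, beside 22.7% of the probe sets kept. Without both WAT 4 and RS 3, which left 1 RS array, Mief2 differed by -0.73 in RG against BAT and by 0.74 in CL against RG. These differences were the same as in the main fit, as neither left-out array belongs to the groups compared. The cause of the changes in calls under the alternatives was not tested.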
